A study of Mus musculus with 12 samples.

Results

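The response of TRIM21 knockout liver to diethylnitrosamine (DEN) was taken from 5 of the 12 libraries of the series, namely 2 from knockout mice given DEN (DENKO_141 and DENKO_309) and 3 from knockout mice given PBS (PBSKO_154, PBSKO_544 and PBSKO_549). The libraries were chosen by their titles. All mice were male, of strain C57BL/6 and 8 weeks old, and carried the same genotype, given as TRIM21 KO, so that by the labels the groups differed in the injection alone. The DEN mice had received 200 mg/kg in PBS as 1 intraperitoneal dose and the control mice PBS only, and the liver was removed after 48 h. How the knockout allele was made and which cells lack the protein are not stated in the labels. Each library is total RNA of whole liver after removal of ribosomal RNA. The series also holds 3 DEN and 3 PBS libraries of wild-type mice of the same strain, sex and age, and 1 DEN library labelled TRIM21+/-.

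TRIM21 is an E3 ubiquitin ligase that binds the constant part of antibodies inside the cell. DEN is a hepatic carcinogen that becomes active when cytochrome P450 enzymes, mainly CYP2E1 of the hepatocytes around the central vein, remove an ethyl group from it. The product alkylates DNA, and the damage activates p53, the transcription factor that switches on genes of cell cycle arrest, of repair and of cell death. Hepatocytes killed by the alkylation are cleared by phagocytes, and the survivors may divide to replace them. The antioxidant genes of liver are in large part under the transcription factor NRF2, which the KEAP1 protein holds in check.

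Trim21 had 3, 5 and 5 counts in the PBS knockout libraries and 3 in each DEN knockout library, against 93 to 225 counts in the wild-type libraries. The library labelled TRIM21+/- had 7 Trim21 counts, which goes against its label, and it was left out of every fit. Gene counts totalled 19279993 to 23013125 in the 5 knockout libraries. Alignments tallied as not unique came to 1.42 and 1.69 per gene count in the DEN knockout libraries and to 3.36 to 3.53 in the PBS knockout libraries. The factors that scale the libraries to each other were 1.13 and 1.16 after DEN and 0.858 to 0.901 after PBS. The part of this difference in the results was not tested. PBSKO_549 stood apart from the other PBS libraries in the clock gene Per1, which was at 76.6, 59.4 and 4.36 CPM (read counts over the scaled library total, times 1000000) in PBSKO_154, PBSKO_544 and PBSKO_549 and at 85.4 and 77.6 CPM in DENKO_141 and DENKO_309.

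After DEN, 1594 of 13255 tested genes (12% of them) were higher and 1416 (10.7%) were lower at an adjusted p under 0.05 in the quasi-likelihood test of edgeR, with Benjamini-Hochberg adjustment over all tested genes. The median log2 fold change over all tested genes was 0.01. Of the called genes, 897 were higher and 567 lower by at least 2-fold, and 220 and 68 by at least 8-fold. In 5 of the 3010 called genes the ranges of the 2 groups overlapped, while over all tested genes both DEN libraries lay above the PBS libraries in 3672 (27.7%) and below them in 3139 (23.7%). Without DENKO_309, 718 genes were called higher and 443 lower. With either DEN library left out the DEN group holds 1 library, whose spread is assumed to be that of the other groups. Without DENKO_141 the numbers were 1162 and 930, and without PBSKO_549 they were 1542 and 1415.

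In what follows, CPM values are given for PBSKO_154, PBSKO_544 and PBSKO_549 in this order and then for DENKO_141 and DENKO_309. A log2 fold change is DEN minus PBS. The ± value is an approximate standard error, namely the size of the log2 fold change over the square root of the F of its test. The p given after it is edgeR's adjusted p (n = 2 and 3). Counts of list members are to be read against the 12% and 10.7% above. Lists can share members, such as Btg2 in the p53 and immediate-early lists, so their counts are not independent. Whether each numbered library comes from a different animal is not stated, and the p-values therefore cover the spread between libraries, which may be technical. That spread was estimated over 11 libraries in 4 groups, the wild-type ones included. With the 5 knockout libraries fitted alone, 1228 genes were called higher and 997 lower. Families of near-identical genes (Cyp2c, Cyp4a, Mup, Ugt2b, Gst, Saa and Serpina1) may share reads, and no strand setting is given in the sources used here, so values of such genes and of overlapping genes are uncertain.

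**Figure D1:**
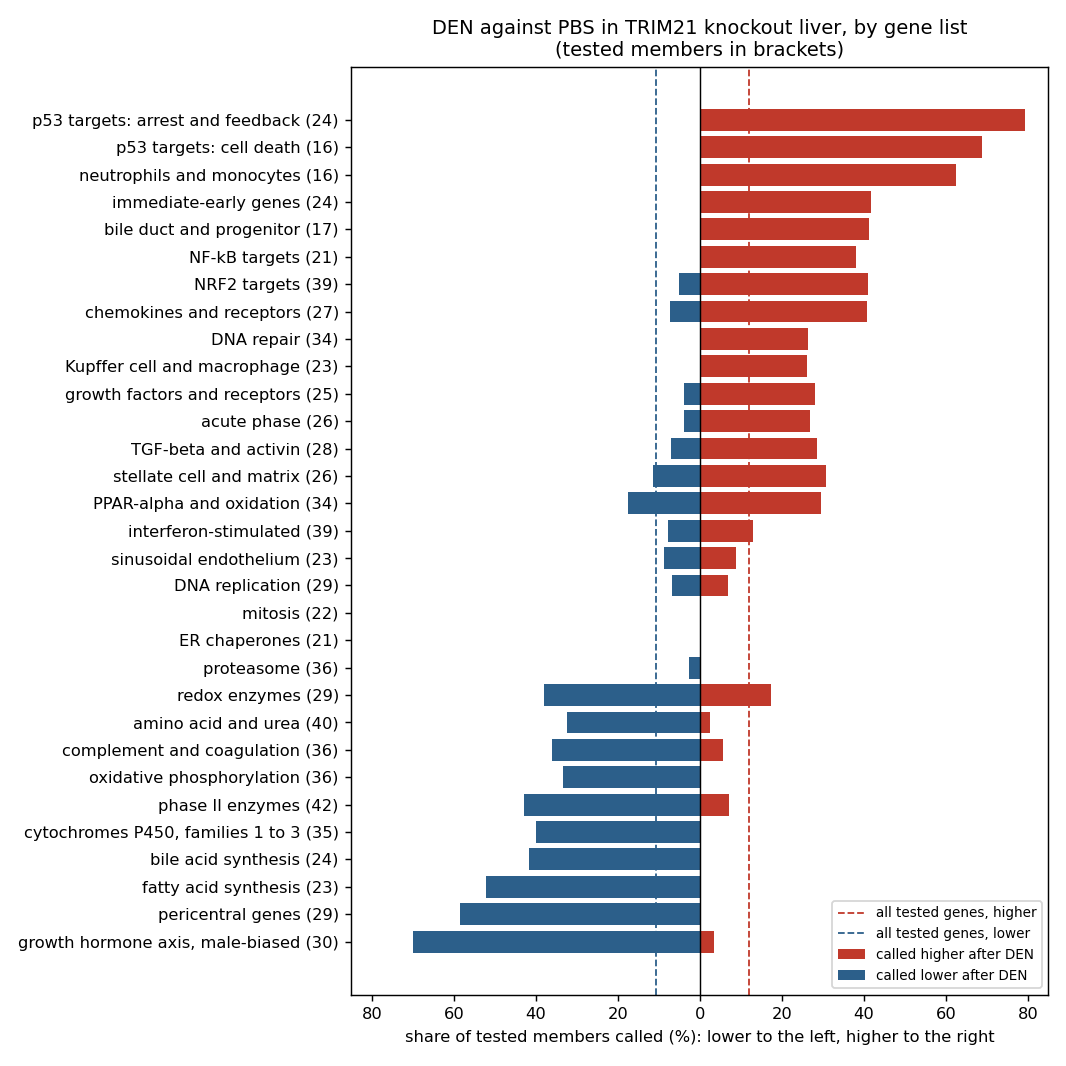
Share of the tested members of 31 gene lists called higher (red, to the right) or lower (blue, to the left) after DEN in knockout liver, in percent, with the shares over all tested genes as dashed lines. The p53 target lists lie at the top with 19 of 24 and 11 of 16 members higher, the growth hormone list at the bottom with 21 of 30 lower, and the mitosis and ER chaperone lists have no called member.

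Genes that p53 switches on had the largest shares called higher among the lists in the plot of shares. Of 24 tested p53 targets of arrest and feedback, 19 rose and none fell (median log2 fold change 2.64), and of 16 p53 targets of cell death, 11 rose and none fell (median 1.55). Cdkn1a, which encodes the cyclin-dependent kinase inhibitor p21, stood at 7.61, 12.6 and 6.23 CPM after PBS and at 729 and 680 CPM after DEN (log2 fold change 6.32 ± 0.61, adjusted p = 0.00012). Ccng1, the p53-induced cyclin G1, stood at 45.8, 43.7 and 34.4 CPM and at 603 and 641 CPM (3.91 ± 0.17, 8e-09). In both genes the DEN libraries were alike and far above every PBS library. Mdm2, the ubiquitin ligase that returns p53 to its low level, went from 28.2, 30.3 and 28.9 CPM to 196 and 222 CPM (2.84 ± 0.13, 1.3e-08), and Ppm1d, the phosphatase that also ends the response, from 5.43, 3.23 and 5.86 CPM to 12.7 and 12.3 CPM (1.37 ± 0.26, 0.0025). Both feedback genes rose by smaller folds than Cdkn1a and Ccng1.

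Promoters of p53 targets are shown for where the p53 consensus lies in them. The windows run from 250 bases before to 50 bases after the start site in the RefSeq table of build GRCm38.p6, and the p53 consensus was searched over 20 bases with both cores intact and at most 2 mismatches elsewhere. The consensus reads the same on both strands. Here and for the motifs below, a gene counts as holding a motif if any of its windows does. The share of the whole table is per window, so these shares have unlike units. Cdkn1a has 2 windows, and the first that held the consensus is shown. Of the 30 p53 targets called higher, 24 matched a window by symbol and 3 of them (12.5%) held the consensus, namely Zfp365, Cdkn1a and Gtse1, which are also the 3 among all 33 matched targets, against 52 of 32851 windows (0.158%) in the whole table. Capitals mark the match, which has 2 mismatches in Zfp365 at chr10:67912613-67912912 (minus strand) and 1 in Cdkn1a at chr17:29090729-29091028 (plus strand).
Zfp365: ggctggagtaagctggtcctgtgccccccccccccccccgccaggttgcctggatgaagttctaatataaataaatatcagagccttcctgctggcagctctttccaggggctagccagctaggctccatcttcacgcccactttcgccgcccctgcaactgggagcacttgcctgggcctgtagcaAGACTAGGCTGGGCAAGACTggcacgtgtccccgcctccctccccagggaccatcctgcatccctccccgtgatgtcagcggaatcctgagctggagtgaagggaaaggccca
Cdkn1a: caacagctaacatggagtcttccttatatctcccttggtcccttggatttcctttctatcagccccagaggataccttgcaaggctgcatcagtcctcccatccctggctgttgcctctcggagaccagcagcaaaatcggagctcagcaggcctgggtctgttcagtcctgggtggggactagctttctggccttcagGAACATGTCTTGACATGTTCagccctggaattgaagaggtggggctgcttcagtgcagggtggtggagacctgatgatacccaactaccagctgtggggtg
The match begins 63 bases before the start site in Zfp365 and 51 bases before it in Cdkn1a. Zfp365, a zinc finger gene of the DNA damage response, had 1 count in each PBS library and rose to 26.1 and 25.6 CPM, 478-fold (exact 95% counting interval 163 to 2320). Gtse1, chosen for its match after its value was seen, encodes a microtubule-binding protein that restrains p53 and went from 1.21, 1.39 and 1.01 CPM to 27.9 and 24.5 CPM (4.43 ± 0.30, 7.3e-07). A match in these letters is a description and not a shown binding site, and the absence of one in the other 21 says only that the letters are not in this window.

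Other p53 targets of arrest rose by folds of all sizes. Phlda3, which encodes an inhibitor of AKT signalling, stood at 1.81, 1.19 and 1.22 CPM and at 123 and 126 CPM (6.47 ± 0.23, 2.5e-09). Psrc1, which encodes a spindle protein, stood at 0.543, 0.248 and 0.0532 CPM and at 33.7 and 43.7 CPM (7.12 ± 0.36, 4.9e-08). Rprm, which encodes the arrest protein Reprimo, had no count in the PBS libraries and 1.38 and 1.73 CPM after DEN, at least 28.6-fold higher when the PBS group is set to 3 counts in all. All 3 were under 2 CPM in every PBS library. Sesn2, a stress-induced brake on mTORC1, went from 5.68, 8.2 and 5.22 CPM to 39.9 and 38 CPM (2.61 ± 0.21, 2.3e-06), and Btg2, an antiproliferative gene, from 23.6, 11.6 and 11.5 CPM to 131 and 201 CPM (3.42 ± 0.34, 5.7e-05). Gdf15, a secreted stress hormone, rose by 2.67 ± 0.43 log2 units (0.0022). Zmat3, a p53-induced RNA-binding protein, went from 11.3, 13 and 10.3 CPM to 59.7 and 58.2 CPM (2.35 ± 0.17, 8.9e-07).

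Death receptors and mitochondrial killers both rose. Eda2r, the ectodysplasin A2 receptor, which can signal death, stood at 0.302, 0.596 and 0.266 CPM and at 54.8 and 43.6 CPM (6.94 ± 0.29, 8.3e-09), and Tnfrsf10b, the receptor of TRAIL, at 0.241, 0.248 and 0.266 CPM and 17.6 and 20.3 CPM (6.2 ± 0.32, 2.7e-08). Fas, the receptor of FASL, was at 20.5, 19.8 and 19.2 CPM and then at 49.97 and 53.4 CPM (1.38 ± 0.14, 1.7e-05). Of the mitochondrial killers, Bax rose by 2.01 ± 0.19 (9.4e-06), Bbc3, which encodes PUMA, by 1.72 ± 0.25 (0.00045) and Pmaip1, which encodes NOXA, by 3.8 ± 0.32 (2.8e-06). Of 12 tested genes of the BCL2 family, 5 rose and none fell (median 0.11), on both sides of the balance. The protectors Bcl2l1, which encodes BCL-XL, and Mcl1 rose by 0.89 ± 0.14 (0.00058) and 0.71 ± 0.12 (0.00091), and the killer Bcl2l11, which encodes BIM, by 2.14 ± 0.30 (0.00032). Bcl2l14, a further family member, stood at 1.87, 0.695 and 0.426 CPM and at 5.18 and 10.9 CPM (3.04 ± 0.53, 0.0025).

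Repair genes moved far less than arrest genes. Of 34 tested repair genes 9 rose and none fell, with a median of 0.35. Polk, which encodes the translesion polymerase kappa, stood at 4.35, 5.56 and 4.58 CPM and at 39.6 and 39.8 CPM (3.04 ± 0.17, 5.4e-08), and Gadd45b, a stress sensor, at 1.39, 1.09 and 0.639 CPM and 8.59 and 8.35 CPM (3.03 ± 0.62, 0.0071). Ddb2, which encodes a protein that recognises bulky lesions, stood at 5.62, 6.11 and 5.54 CPM and 6.1 and 7.21 CPM and did not pass (0.21 ± 0.18, 0.45). Mgmt, which removes alkyl groups from guanine, had a value of 0.29 ± 0.22 (0.37) and Rrm2b, the p53-induced subunit of ribonucleotide reductase, one of 0.72 ± 0.25 (0.052). Neither of them passed.

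**Figure D2:**
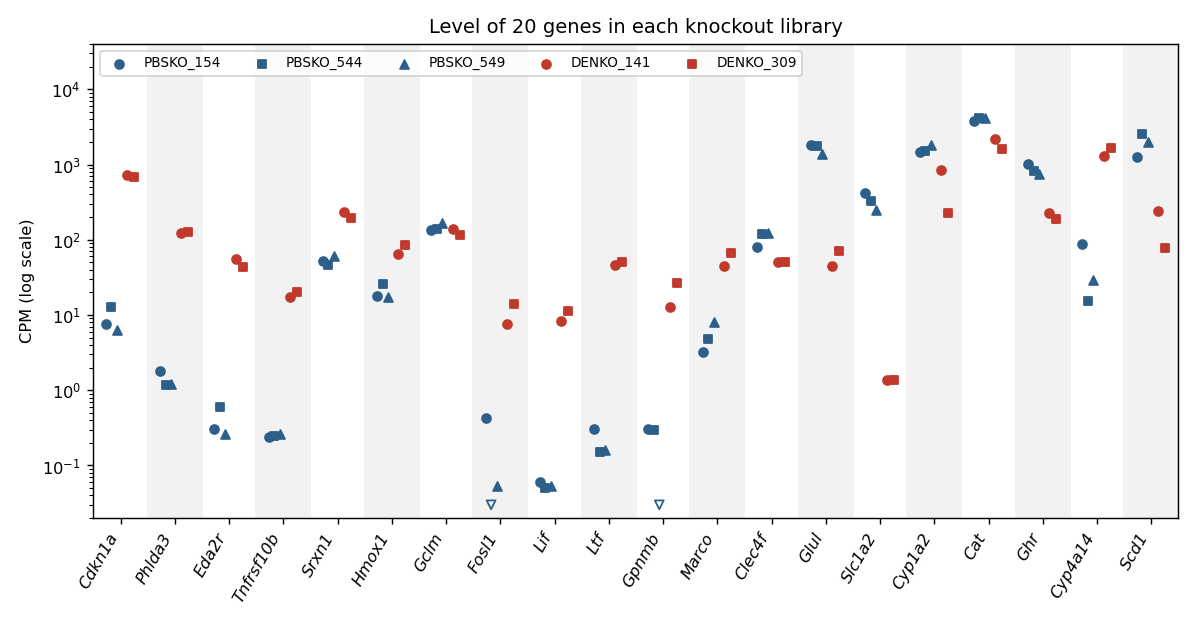
CPM on a log scale of 20 genes in the 3 PBS (blue) and 2 DEN (red) knockout libraries, 1 point a library, with open triangles at the foot for libraries at 0. The DEN points of Cdkn1a, Phlda3, Eda2r and Tnfrsf10b lie close together and far above the PBS points, Slc1a2 falls to 1.38 and 1.35 CPM, Cyp1a2 parts the 2 DEN libraries, and Gclm overlaps between the groups.

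The genes of the hepatocytes around the central vein, which also hold the enzymes that activate DEN, fell, some of them to a small remainder of the PBS level. Of 29 tested pericentral genes 17 fell and none rose, with a median of −1.47 (11 fell without DENKO_309). In whole liver, fewer pericentral cells and less RNA per cell cannot be told apart. Glul, the glutamine synthetase of the innermost cell layer, stood at 1829, 1739 and 1395 CPM and at 44.3 and 69.9 CPM (−4.86 ± 0.28, 9.2e-08), and Slc1a2, a glutamate transporter of the same cells, at 421, 330.4 and 248 CPM and 1.38 and 1.35 CPM (−7.92 ± 0.36, 1.4e-08). Slc22a3, an organic cation transporter, fell from 10.8, 10.9 and 4.95 CPM to 0.192 and 0.169 CPM (−5.57 ± 0.57, 2.6e-05). Lgr5, the R-spondin receptor of pericentral hepatocytes, went from 12, 6.86 and 5.43 CPM to 1.42 and 0.886 CPM (−2.8 ± 0.43, 0.00063). In these genes every DEN library was below every PBS library.

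The DEN libraries were far apart in Oat and Cyp1a2. Oat, which encodes ornithine aminotransferase, was at 2284, 1276 and 1466 CPM after PBS, at 322 CPM in DENKO_141 and at 62.4 CPM in DENKO_309 (−3.13 ± 0.70, 0.013, and 0.063 with the 5 knockout libraries fitted alone). Cyp1a2, the main dioxin-inducible P450 of liver, was at 1468, 1531 and 1804 CPM and then at 858 and 224 CPM (−1.57 ± 0.44, 0.027), and without DENKO_309 its adjusted p was 0.058, without PBSKO_549 0.054 and with the 5 knockout libraries fitted alone 0.12. Cyp2c37, a P450 whose reads may be shared with its near-identical neighbours, was at 456, 214 and 442 CPM and 73.8 and 50.1 CPM (−2.58 ± 0.41, 0.0015). Cyp2e1, the chief activator of DEN, stood at 16550, 12010 and 10870 CPM and 2086 and 2271 CPM (−2.59 ± 0.65, 0.018). The adjusted p of Cyp2e1 was 0.11 without DENKO_141 and 0.13 without DENKO_309. Cyp2a5, another P450 that can activate nitrosamines, fell short of a call at 1432, 1412 and 558 CPM and 319 and 112 CPM (−2.4 ± 0.81, 0.066). Of the P450 families 1 to 3, 14 of 35 fell and none rose (median −0.78, 4 lower without DENKO_309), and of 9 genes of the metabolic activation of DEN 3 fell and 1 rose (median −0.45). Cyb5r3, the cytochrome b5 reductase, fell by 1.05 ± 0.19 on the log2 scale (0.0017).

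The difference of the pericentral response from that of wild-type liver was tested in the same fit as an interaction (knockout response minus wild-type response). Over all tested genes 540 (4.07%) had a higher and 332 (2.5%) a lower response in knockout. Of the 29 pericentral genes, 14 had a higher response in knockout, that is a smaller fall, and none a lower one. Cyp1a2 changed by −1.57 log2 units in knockout and by −7.34 in wild type (difference 5.78 ± 0.58, adjusted p = 0.0018), Cyp2c37 by −2.58 and −6.0 (3.42 ± 0.51, 0.01) and Lgr5 by −2.8 and −5.44 (2.64 ± 0.69, 0.04). Cyp27a1, the sterol 27-hydroxylase, changed by −0.72 and −2.99 (2.27 ± 0.36, 0.0086) and was not called in knockout itself. For Glul the difference was −0.12 ± 0.30 (0.84), for Slc1a2 0.17 ± 0.39 (0.83) and for Cyp2e1 1.27 ± 0.78 (0.34), none of them past the threshold. Without DENKO_141, 3 of the 29 pericentral genes had a called difference, against 11 without DENKO_309. Over all genes 24 and 2 differences were called without DENKO_141 and 431 and 185 without DENKO_309. The difference of Cyp1a2 was called in all 16 alternatives, those of Cyp2c37 and Cyp27a1 in all but that without DENKO_141, and that of Lgr5 in 7.

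**Figure D3:**
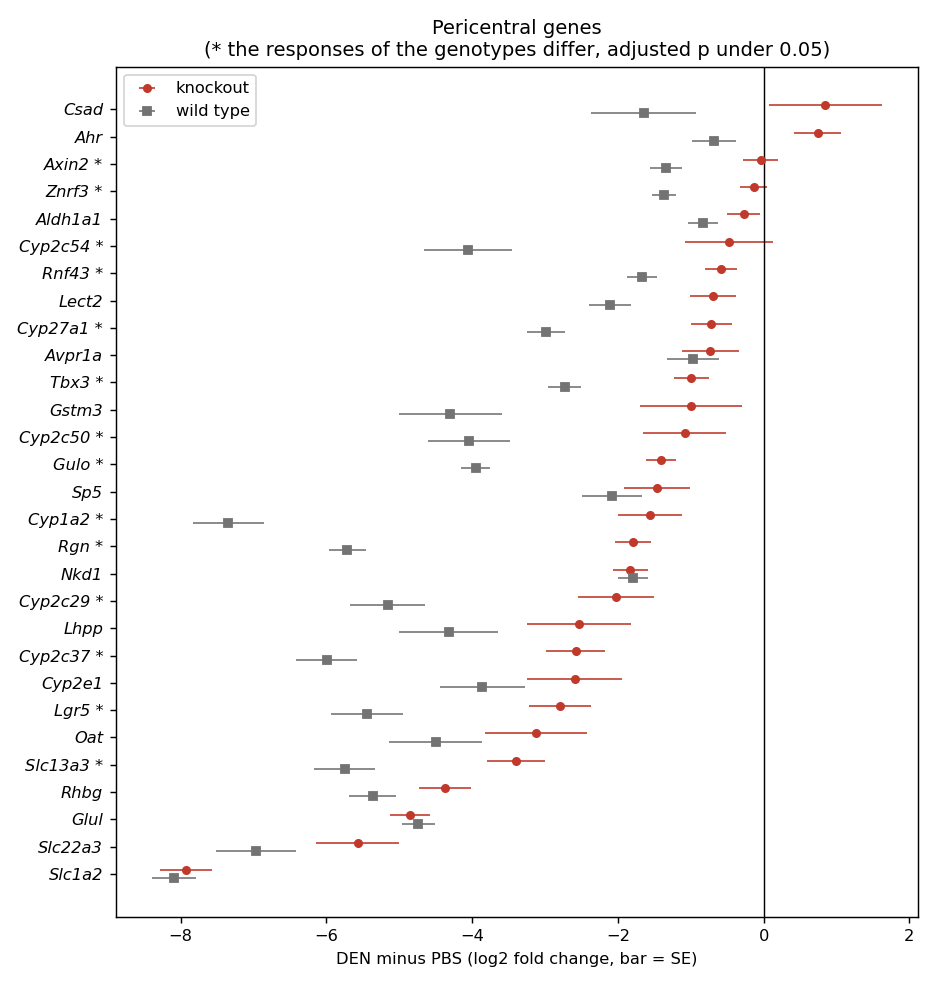
DEN minus PBS in log2 units for the 29 tested pericentral genes in knockout (red circles, 2 against 3 libraries) and wild type (grey squares, 3 against 3), ordered by the knockout value. Bars are the approximate standard error described in the text. An asterisk marks genes whose responses differ at an adjusted p under 0.05. Glul and Slc1a2 lie together in both genotypes, while the 14 marked genes lie farther to the left in wild type.

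Periportal genes, of the hepatocytes at the opposite end of the lobule, had values nearer 0: 1 of 21 rose and 5 fell (median −0.33, none lower without DENKO_309). Cyp2f2, a P450 of this zone, stood at 1525, 1610 and 2263 CPM and 868 and 522 CPM (−1.37 ± 0.32, 0.0091, and 0.12 without DENKO_309). Genes that mark hepatocytes of all zones fell in 5 of 15 and rose in none (median −0.55, with 3 lower without either DEN library and 3 without PBSKO_154). Their summed level was 154000 to 183000 CPM after PBS and 118000 and 123000 CPM after DEN. Alb, which encodes albumin, stood at 68450, 65030 and 82960 CPM and 57810 and 57300 CPM and did not pass (−0.33 ± 0.22, 0.32). Ttr, the carrier of thyroid hormone, fell from 7527, 7392 and 11400 CPM to 4085 and 4262 CPM (−1.07 ± 0.23, 0.0051), and Serpina1c, an alpha-1-antitrypsin gene whose reads may be shared with its neighbours, fell by 1.56 ± 0.27 log2 units (0.0014).

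Of 42 phase II genes 18 fell and 3 rose (median −0.71, 6 lower without DENKO_309), and of 25 transporters 9 fell and 1 rose (median −0.44, 4 lower without DENKO_309). Sult1c2, a sulfotransferase, stood at 4.41, 4.12 and 3.03 CPM and at 0.46 and 0.211 CPM (−3.48 ± 0.39, 4.5e-05), and Ugt2b1, a glucuronosyltransferase, at 1456, 1729 and 1658 CPM and 603 and 342 CPM (−1.77 ± 0.33, 0.0025). The drug efflux pump gene Abcb1b rose from 2.78, 3.43 and 2.02 CPM to 29.3 and 28.5 CPM (3.39 ± 0.23, 4.4e-07). Of the 3 phase II genes that rose, Ephx1, the microsomal epoxide hydrolase, stood at 483, 465 and 464 CPM and 1282 and 1004 CPM (1.28 ± 0.19, 0.00041), and Gsta1, a glutathione transferase, at 0.604, 0.894 and 1.65 CPM and 12.5 and 5.82 CPM (3.11 ± 0.47, 0.00072). DENKO_141 was the higher of the DEN libraries in both.

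The series is titled for antioxidant capacity among other things, and the genes of this function are given by role. Of 39 tested NRF2 targets 16 rose and 2 fell, with a median of 0.03. The regulator came first: Nfe2l2, which encodes NRF2, stood at 63.3, 79.3 and 52 CPM and 148 and 136.2 CPM (1.13 ± 0.17, 0.00038). Of the genes of thiol repair, Srxn1, which restores oxidised peroxiredoxins, stood at 51.9, 46.7 and 60.8 CPM and 236 and 194 CPM (2.01 ± 0.15, 1.1e-06), and Txnrd1, thioredoxin reductase, at 182, 165 and 167 CPM and 296 and 244 CPM (0.66 ± 0.13, 0.0038). In glutathione supply, Slc7a11, the cystine carrier, had 1 count over the PBS libraries and 2.76 and 4.3 CPM after DEN, 194-fold (exact 95% counting interval 34.3 to 7700). Gclc, the catalytic subunit of glutamate-cysteine ligase, went from 240.2, 225 and 348 CPM to 596 and 462 CPM (0.96 ± 0.21, 0.006, and 0.063 without DENKO_141), whereas its modifier subunit Gclm stood at 137, 140.3 and 168 CPM and 141.1 and 117 CPM and did not pass (−0.20 ± 0.16, 0.41). The 2 subunits of the same enzyme thus had values of unlike sign, of which that of Gclc passed.

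Carbonyl, quinone and heme detoxification followed. Nqo1, a quinone reductase, stood at 12.5, 8.25 and 6.44 CPM and 30.2 and 20.7 CPM (1.5 ± 0.25, 0.0012), Cbr3, a carbonyl reductase, at 0.543, 0.795 and 0.745 CPM and 5.6 and 2.95 CPM (2.6 ± 0.39, 0.00044), and Hmox1, heme oxygenase 1, at 18.1, 26.1 and 17.5 CPM and 64.2 and 84.4 CPM (1.85 ± 0.22, 9.6e-05). DENKO_141 was the higher DEN library for Nqo1 and Cbr3 and DENKO_309 for Hmox1. G6pdx, which supplies NADPH, rose from 2.96, 3.38 and 6.23 CPM to 9.17 and 9.83 CPM (1.18 ± 0.27, 0.0078, and 0.066 without DENKO_309). Against wild type, the responses of Nfe2l2 and Gclm were higher in knockout, by 0.82 ± 0.22 (0.045) and 0.92 ± 0.22 (0.031). Gclm fell in wild type, by −1.12 log2 units (3.5e-05), and was not called in knockout. Nfe2l2 had a value of 0.31 in wild type (0.092). The differences of Srxn1, Hmox1, Nqo1, Txnrd1 and Gclc did not pass, at −0.52, 0.14, 0.85, −0.04 and −0.25. The calls for Nfe2l2 and Gclm ended in 10 and 7 of 16 alternatives, that without DENKO_141 among them.

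The antioxidant response element, TGACNNNGC on either strand, was found in the window of 7 of the 13 NRF2 targets called higher that matched a promoter (53.8%) and of 13 of 35 matched members of the whole list, against 4071 of 32851 windows (12.4%). The windows of the 2 with the largest fold changes among these are shown, since both rose in knockout liver, Srxn1 at chr2:152105274-152105573 (plus strand) and G6pdx at chrX:74428831-74429130 (minus strand), with the element in capitals.
Srxn1: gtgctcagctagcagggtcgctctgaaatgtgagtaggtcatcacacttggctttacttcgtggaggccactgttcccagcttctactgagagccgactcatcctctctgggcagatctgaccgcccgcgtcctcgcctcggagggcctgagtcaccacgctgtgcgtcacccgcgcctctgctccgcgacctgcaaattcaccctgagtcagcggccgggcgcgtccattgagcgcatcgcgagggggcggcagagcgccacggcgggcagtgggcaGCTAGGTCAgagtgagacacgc
G6pdx: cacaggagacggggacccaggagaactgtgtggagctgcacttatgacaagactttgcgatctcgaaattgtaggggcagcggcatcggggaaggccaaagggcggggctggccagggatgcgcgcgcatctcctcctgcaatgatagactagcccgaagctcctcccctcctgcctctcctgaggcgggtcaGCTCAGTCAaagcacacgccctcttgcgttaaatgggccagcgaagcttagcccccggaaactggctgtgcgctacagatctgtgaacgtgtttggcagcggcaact
The element begins 28 bases after the start site in Srxn1 and 57 bases before it in G6pdx, and in both it lies on the strand opposite to the one printed. Slc7a11, Gsta1, Cbr3 and Nqo1 rose without these letters in the window.

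Redox enzymes outside that list went down more often than up: 5 of 29 rose and 11 fell (median −0.2). Without DENKO_309 1 rose and 4 fell, and without DENKO_141 6 fell. Cat, the peroxisomal catalase, stood at 3733, 4141 and 4163 CPM and 2191 and 1606 CPM (−1.08 ± 0.23, 0.0043, and 0.075 without DENKO_309). Gpx1, the main glutathione peroxidase of hepatocytes, fell by 1.13 ± 0.26 log2 units (0.007, and 0.051 and 0.057 without DENKO_141 and DENKO_309), and Sod1, the cytosolic superoxide dismutase, by 0.72 ± 0.16 (0.0068, and 0.051 without DENKO_309). All 3 enzymes were lower in both DEN libraries than in every PBS library. Msra, which repairs oxidised methionine, fell from 280.5, 225 and 268 CPM to 119 and 97.7 CPM (−1.25 ± 0.17, 0.00026), and Selenbp2, a selenium-binding protein, from 575, 1593 and 1270 CPM to 58.7 and 84.4 CPM (−4.0 ± 0.64, 0.0021). The metallothioneins rose mainly in DENKO_309: Mt1 stood at 62.9, 86.6 and 41 CPM and 124 and 375 CPM (1.98 ± 0.46, 0.014), and Mt2 at 13.7, 46 and 15 CPM and 73.1 and 246 CPM (2.67 ± 0.77, 0.04). Without DENKO_309 the adjusted p was 0.17 for Mt1 (0.069 with the 5 knockout libraries fitted alone) and 0.33 for Mt2, and the call of Mt2 ended in 8 of 17 alternatives. Of 26 genes of iron and heme 7 fell and 2 rose (1 lower without DENKO_309), and Hamp2, a hepcidin gene, fell from 91, 46.6 and 36 CPM to 2.84 and 9.28 CPM (−3.26 ± 0.57, 0.0039).

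Immediate-early genes, which encode transcription factors induced without new protein synthesis, rose in 10 of 24 and fell in none (median 1.32). Fosl1, the AP-1 subunit FRA1, stood at 0.423, 0 and 0.0532 CPM and 7.59 and 14 CPM (6.16 ± 0.69, 0.00017), Egr2 at 0.241, 0.149 and 0.0532 CPM and 2.22 and 4.34 CPM (4.45 ± 0.52, 0.00014), and Klf6 at 6.88, 7.8 and 5.22 CPM and 33.8 and 55.3 CPM (2.74 ± 0.25, 1.3e-05). All 3 were higher in DENKO_309 than in DENKO_141. Egr1 was so too, at 13, 2.14 and 9.53 CPM and 45.1 and 116 CPM (3.31 ± 0.86, 0.029), and its adjusted p was 0.19 without DENKO_309 and 0.063 without PBSKO_549, and 0.079 with the 5 knockout libraries fitted alone. The classical AP-1 genes Fos and Jun did not pass, at 1.16 ± 0.68 (0.25) and 1.05 ± 0.42 (0.11). The AP-1 site TGANTCA, searched on both strands, was in no window of the 8 matched members called higher. It was in 1 of 19 matched members of the whole list and in 7.81% of all windows.

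Genes of the integrated stress response, which ATF4 runs, gave 6 higher and 3 lower of 26 (median 0.19, 3 higher without DENKO_309). Ddit3, which encodes the factor CHOP, stood at 7.37, 9.49 and 8.94 CPM and 13.4 and 20.6 CPM (0.98 ± 0.22, 0.0059, and 0.13 without DENKO_309). Atf4 itself stood at 198, 123 and 206 CPM and 114 and 119 CPM and did not pass (−0.59 ± 0.23, 0.085). The members that rose include Sesn2 and Gdf15, already counted among the p53 targets. Those that fell were Aars, Psph and Shmt2. Fgf21, a hormone of hepatic stress and fasting, was at 0.543, 0.149 and 0.745 CPM after PBS, at 0.69 CPM in DENKO_141 and at 4.34 CPM in DENKO_309, so that the groups overlapped and 1 library set its value (2.39 ± 0.77, 0.048, and 0.69 without DENKO_309). Its call ended in 14 of 17 alternatives. The window of Fgf21 at chr7:45615441-45615740 (minus strand) is shown because it was the single one of 5 matched members called higher to hold TGATGNAA, the composite site of ATF4 and C/EBP, which 3.97% of all windows and 7 of 25 matched members of the whole list hold on either strand.
Fgf21: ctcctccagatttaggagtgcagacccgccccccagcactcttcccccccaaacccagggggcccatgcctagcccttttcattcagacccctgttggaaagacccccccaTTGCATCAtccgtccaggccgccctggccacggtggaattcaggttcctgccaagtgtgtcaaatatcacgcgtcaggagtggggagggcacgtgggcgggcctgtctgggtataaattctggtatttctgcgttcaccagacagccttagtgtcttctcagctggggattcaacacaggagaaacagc
The site, in capitals, begins 139 bases before the start site and lies on the opposite strand. No member of the 21 ER chaperones was called (median −0.12), and Hsp90b1, the chaperone GRP94, stood at 1126, 849.8 and 1175 CPM and 879.8 and 844 CPM (−0.28 ± 0.18, 0.27). Of 17 heat shock genes 1 rose and 1 fell. The one that rose was Hspb1, the small heat shock protein HSP27, from 4.11, 5.56 and 5.54 CPM to 15.3 and 18.5 CPM (1.73 ± 0.35, 0.0043).

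The acute phase genes, which hepatocytes secrete under the cytokines IL-6 and IL-1, split. Of 26 tested members 7 rose and 1 fell (median −0.08, 3 higher without DENKO_309). Serpina3n, a protease inhibitor, stood at 483, 543.9 and 423 CPM and 1282 and 1876 CPM (1.71 ± 0.20, 5.7e-05), and Il1rn, the antagonist of the IL-1 receptor, at 1.27, 1.09 and 2.61 CPM and 8.94 and 17.4 CPM (2.98 ± 0.43, 0.00046). Lcn2, an iron-binding secreted protein, stood at 16.5, 31.6 and 43 CPM and 60.5 and 181 CPM (1.99 ± 0.49, 0.019, and 0.22 without DENKO_309, 0.095 with the 5 knockout libraries fitted alone). The serum amyloid genes, by contrast, had values below 0 and did not pass: Saa1 stood at 165, 639 and 280.5 CPM and 47.9 and 149 CPM (−1.88 ± 0.87, 0.16) and Saa2 at 31, 209 and 76.1 CPM and 12.1 and 45.9 CPM (−1.86 ± 1.02, 0.23). PBSKO_544 was the highest library for both, and the genes are similar enough that reads may be shared. Against wild type, the response of Lcn2 was lower in knockout (difference −3.16 ± 0.70, 0.035), a call that ended in 8 of 16 alternatives, that without DENKO_141 among them.

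The STAT site TTCNNNGAA was in 1 of 5 matched acute phase members called higher, in 6 of 22 matched members of the whole list and in 8.3% of all windows. That window belongs to Apcs, serum amyloid P, a gene chosen for this match after its value was seen, at chr1:172895005-172895304 (minus strand), shown with the site in capitals.
Apcs: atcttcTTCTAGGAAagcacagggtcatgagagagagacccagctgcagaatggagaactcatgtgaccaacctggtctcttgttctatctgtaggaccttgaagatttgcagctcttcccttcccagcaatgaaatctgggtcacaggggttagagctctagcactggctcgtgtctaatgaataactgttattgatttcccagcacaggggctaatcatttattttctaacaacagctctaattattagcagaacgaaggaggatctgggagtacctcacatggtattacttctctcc
The site begins 244 bases before the start site. Apcs stood at 80.1, 117 and 145 CPM and 162 and 353 CPM (1.18 ± 0.34, 0.032, and 0.4 without DENKO_309), and its call ended in 5 of 17 alternatives. Of 36 genes of complement and coagulation 13 fell and 2 rose (median −0.51). The number lower was 6 without DENKO_141 and 4 without DENKO_309. C6 and C8g, components of the complement pore, fell by 1.57 ± 0.21 (0.00018) and 1.16 ± 0.23 log2 units (0.0035), while Mbl2, a lectin that starts complement, rose from 477, 394 and 463 CPM to 913 and 732 CPM (0.89 ± 0.18, 0.0043).

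Of 15 genes of the IL-6 family and STAT3, 4 rose and 1 fell (median 0.57). Lif, the leukemia inhibitory factor, had 1 count in each PBS library and 8.21 and 11.3 CPM after DEN, 179-fold (exact 95% counting interval 60.9 to 871). Lifr, the LIF receptor, fell from 752, 597 and 883 CPM to 213 and 122 CPM (−2.15 ± 0.27, 0.00012). Osmr, the oncostatin M receptor, rose from 1.63, 1.89 and 1.49 CPM to 8.44 and 13.9 CPM (2.73 ± 0.25, 7.7e-06). Stat3, the factor downstream of both receptors, rose by 0.57 ± 0.13 (0.006). Of 27 genes of chemokines and their receptors 11 rose and 2 fell (median 0.73). Ccl2, which draws monocytes, stood at 0.241, 0.248 and 1.12 CPM and 8.67 and 12.9 CPM (4.3 ± 0.52, 0.00015), its receptor Ccr2 at 1.63, 2.23 and 2.23 CPM and 9.2 and 7.21 CPM (2.0 ± 0.30, 0.00046), and Cxcl1, which draws neutrophils, at 3.32, 2.14 and 2.82 CPM and 13.3 and 42.6 CPM (3.34 ± 0.56, 0.0027). Ccl2 and its receptor thus rose together. The summed markers of neutrophils and monocytes (59.7 to 66 CPM after PBS and 169 and 196 CPM after DEN) moved in the same direction, and their part in these values was not tested. Ccl4 rose by 3.93 ± 0.66 (0.001) and Ccr1 by 3.65 ± 0.59 (0.00085).

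Of 21 NF-κB targets 8 rose and none fell (median 0.36, with 4 higher without either DEN library and 5 without PBSKO_154). Icam1, the adhesion molecule of leukocyte entry, stood at 11.5, 11.2 and 23.1 CPM and 73.1 and 75.2 CPM (2.28 ± 0.27, 0.00016), and Tnfrsf12a, the receptor of TWEAK, at 10.2, 9.24 and 12.6 CPM and 51.7 and 94.8 CPM (2.78 ± 0.21, 1.9e-06). The rise of Tnfrsf12a was smaller than the 4.57 of wild type (difference −1.79 ± 0.29, 0.0097). Interferon-stimulated genes gave 5 higher and 3 lower of 39 (median 0.19). Without DENKO_141 1 was higher, without PBSKO_154 3 and without PBSKO_544 2, and without PBSKO_549 10 were higher. Tap1, a peptide transporter of antigen presentation, rose from 27.4, 22.4 and 32.1 CPM to 69.8 and 63.6 CPM (1.29 ± 0.16, 8.9e-05). Ifit1, an inhibitor of viral translation, stood at 6.22, 13.2 and 24.4 CPM and 9.89 and 7.13 CPM and did not pass (−0.78 ± 0.50, 0.29), with PBSKO_549 the highest library.

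Markers of neutrophils and monocytes were higher in 10 of 16 tested members and lower in none (median 1.93, 5 higher without DENKO_309). Of the 20 members in the files, 2 or 3 had no count in any one library. Camp, which encodes a granule peptide of neutrophils, was at 0 in all 5, and the granule genes Ngp and Elane had 0 to 5 counts. Ltf, lactoferrin, stood at 0.302, 0.149 and 0.16 CPM and 45.7 and 50.9 CPM (7.88 ± 0.87, 0.00038), and Chi3l3, a chitinase-like protein of myeloid cells, at 0.121, 0 and 0.213 CPM and 12.3 and 22.4 CPM (7.24 ± 0.91, 0.00056). Ly6c2, a marker of inflammatory monocytes, rose from 0.302, 0.149 and 0.479 CPM to 1.53 and 1.69 CPM (2.37 ± 0.52, 0.0057). The calgranulin genes of neutrophils did not pass: S100a8 stood at 2.84, 0.149 and 0.426 CPM and 1.27 and 2.83 CPM (0.89 ± 0.92, 0.53) and S100a9 at 4.11, 0.397 and 0.479 CPM and 2.53 and 5.91 CPM (1.39 ± 0.86, 0.28). PBSKO_154 lay within the range of the DEN libraries for S100a9 and above both for S100a8.

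Of 23 tested genes of Kupffer cells and macrophages 6 rose and none fell (median −0.16), with summed levels of 557 to 753 CPM after PBS and 678 and 780 CPM after DEN. Gpnmb, a glycoprotein of lipid-laden and phagocytic macrophages, stood at 0.302, 0.298 and 0 CPM and 12.8 and 26.7 CPM (6.59 ± 0.57, 1.2e-05), Marco, a scavenger receptor that Kupffer cells also carry, at 3.26, 4.82 and 8.2 CPM and 44.6 and 67.1 CPM (3.36 ± 0.43, 0.0006), and Trem2, a lipid receptor, at 0.966, 0.447 and 0.479 CPM and 3.76 and 6.62 CPM (3.05 ± 0.51, 0.001). Lgals3, galectin 3, rose from 3.98, 4.27 and 5.8 CPM to 38.6 and 56.9 CPM (3.34 ± 0.36, 9.5e-05), more than in wild type (difference 1.99 ± 0.49, 0.039, a call that ended in 8 of 16 alternatives, that without DENKO_141 among them). Among the members not called, the Kupffer cell markers Clec4f and Timd4 had values below 0. Clec4f stood at 79, 119 and 122 CPM and 50.8 and 50.6 CPM (−1.07 ± 0.39, 0.073) and Timd4 at 4.11, 7.3 and 6.12 CPM and 2.76 and 2.91 CPM (−1.05 ± 0.46, 0.12). Both were lower in every DEN library than in every PBS library and neither passed. Lymphocyte markers gave 1 higher and 1 lower of 14, at summed levels of 11.4 to 16.5 CPM after PBS and 15.2 and 10.7 CPM after DEN.

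**Figure D4:**
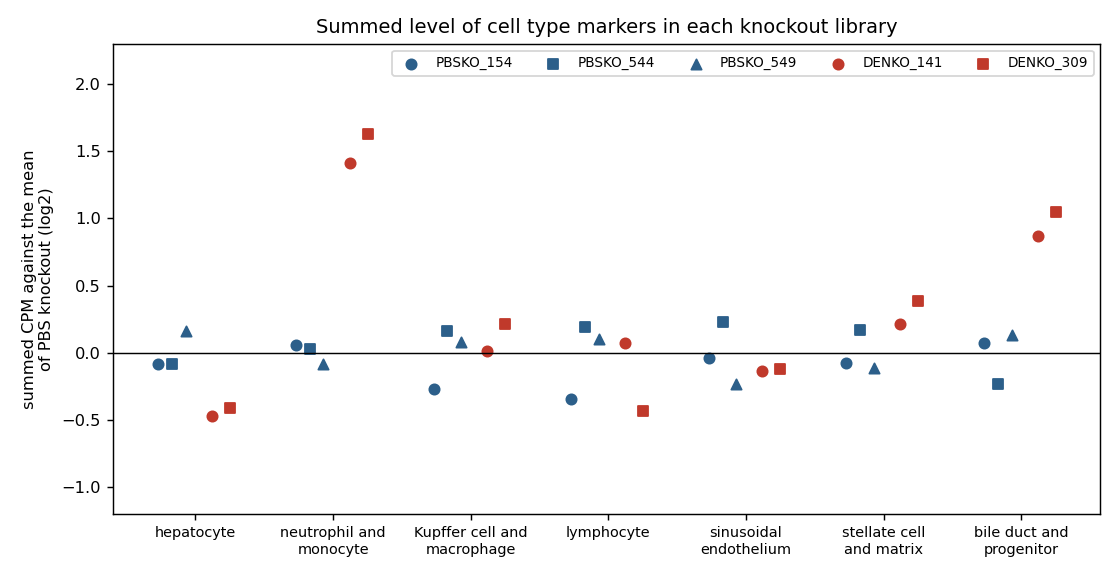
Summed CPM of 7 marker lists in each knockout library as the log2 ratio to the mean of the 3 PBS libraries (blue, PBS; red, DEN). Neutrophil and monocyte markers (169 and 196 CPM) and bile duct and progenitor markers (840 and 949 CPM) lie above the PBS libraries after DEN. Stellate cell and matrix markers do so too (632 and 712 CPM, against 503 to 613 CPM). Hepatocyte markers lie below, whereas Kupffer cell, lymphocyte and endothelial markers overlap. A few abundant members can set a sum. Ltf alone was at 45.7 and 50.9 CPM after DEN. No bile duct gene named in the text as higher exceeded 14.6 CPM, so members not described set most of that sum.

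Genes of the sinusoidal endothelium gave 2 higher and 2 lower of 23. Stab2, a scavenger receptor of these cells, fell from 31.3, 32.9 and 25 CPM to 12.5 and 13.6 CPM (−1.19 ± 0.20, 0.0012), and Tek, the angiopoietin receptor, rose from 5.68, 5.86 and 4.31 CPM to 13.8 and 13.5 CPM (1.37 ± 0.27, 0.0029). Of 26 genes of stellate cells and matrix 8 rose and 3 fell (median 0.46). Mmp12, the macrophage elastase, stood at 0.241, 0.0993 and 0.106 CPM and 16.8 and 28.4 CPM (7.23 ± 0.77, 0.00014), Thbs1, thrombospondin 1, at 1.03, 0.646 and 0.16 CPM and 4.53 and 8.52 CPM (3.43 ± 0.53, 0.00091), and Timp1, an inhibitor of such proteases, at 0, 0.0993 and 0.213 CPM and 1.11 and 1.56 CPM (3.56 ± 0.61, 0.0012). Reln, which marks quiescent stellate cells, fell from 30.6, 37.8 and 27.1 CPM to 10.7 and 9.28 CPM (−1.67 ± 0.18, 2.9e-05). No collagen gene of the list was among the 8 that rose, and the collagen gene Col3a1 was among the 3 that fell. Of 17 bile duct and progenitor genes 7 rose and none fell (median 0.52). Cldn4, a tight junction protein, stood at 0.0604, 0.199 and 0.266 CPM and 4.18 and 14.6 CPM (5.66 ± 0.86, 0.0011), Afp, alpha-fetoprotein, at 1.21, 1.59 and 1.86 CPM and 4.07 and 6.79 CPM (1.79 ± 0.26, 0.00038), and Cd24a, a surface antigen of progenitor cells, at 0.906, 0.646 and 1.01 CPM and 2.57 and 3.37 CPM (1.8 ± 0.32, 0.0016). The keratins that define bile ducts did not pass, Krt19 at −0.38 ± 0.58 (0.69) and Krt7 at 0.73 ± 0.62 (0.43). Of 20 markers of fat, pancreas, blood and muscle, 2 had enough counts to be tested and both fell, Cela1, an elastase, by 1.63 ± 0.20 (0.00012) and Alas2, the first enzyme of heme synthesis in red cells, by 1.28 ± 0.23 log2 units (0.0016).

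Lipid genes parted by pathway. Of 23 genes of fatty acid synthesis 12 fell and none rose (median −0.88), and without DENKO_309 1 fell. Pklr, the liver pyruvate kinase, stood at 155, 236 and 201 CPM and 47.9 and 39.6 CPM (−2.17 ± 0.34, 0.0012). Scd1, the stearoyl-CoA desaturase, stood at 1268, 2580 and 1997 CPM and 238 and 77.9 CPM (−3.62 ± 0.72, 0.0068), and Thrsp, a lipogenic regulator, at 992, 1699 and 336 CPM and 82.4 and 31 CPM (−4.15 ± 0.77, 0.0052). Both were lowest in DENKO_309, and without it their adjusted p was 0.055 for Scd1 and 0.055 for Thrsp. Of 34 genes of PPARα and fatty acid oxidation 10 rose and 6 fell (median 0.17, 4 higher without DENKO_309 and 6 without PBSKO_549). Cyp4a14, a PPARα-induced fatty acid hydroxylase, stood at 86.7, 15.2 and 29.2 CPM and 1308 and 1659 CPM (5.09 ± 0.82, 0.0029), and Cyp4a31 of the same family at 7.12, 2.93 and 7.03 CPM and 47.6 and 63.4 CPM (3.29 ± 0.36, 0.00018). Acot2, a mitochondrial acyl-CoA thioesterase, rose by 2.5 ± 0.37 (0.0011), less than in wild type (difference −2.23 ± 0.53, 0.036, a call that ended in 11 of 16 alternatives, that without DENKO_141 among them). Of the members that fell, Fabp1, the liver fatty acid binding protein, went from 4891, 5372 and 7899 CPM to 909.6 and 1488 CPM (−2.34 ± 0.43, 0.0024).

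Of 32 genes of lipid droplets and apolipoproteins 4 rose and 9 fell (median −0.3). Without DENKO_309 2 rose and 3 fell, and without DENKO_141 5 fell. Apoa4, an apolipoprotein that marks hepatic lipid load, stood at 148, 86.6 and 98.2 CPM and 663 and 1018 CPM (2.92 ± 0.28, 1.1e-05), and Cidec, a droplet fusion protein, at 3.14, 2.83 and 2.02 CPM and 11 and 30.9 CPM (2.97 ± 0.43, 0.0011). Both rose less than in wild type (differences −1.89 ± 0.38, 0.02, and −2.6 ± 0.60, 0.036), calls that ended in 3 and 9 of 16 alternatives, that without DENKO_141 among them. Fitm1, which aids droplet budding, fell from 95.2, 62.9 and 45.5 CPM to 11 and 6.66 CPM (−2.94 ± 0.36, 0.00034), and Apoa2, an HDL protein, by 1.33 ± 0.24 log2 units (0.0017). Of 24 bile acid genes 10 fell and none rose (median −0.74), with 6 lower without DENKO_141 and 3 without DENKO_309. Cyp7b1, the oxysterol hydroxylase, stood at 495, 843 and 930 CPM and 114 and 119.6 CPM (−2.69 ± 0.49, 0.0036), and Amacr, a racemase of side-chain shortening, at 261, 222 and 260.1 CPM and 124 and 106 CPM (−1.11 ± 0.15, 0.00024). Of 24 cholesterol synthesis genes 4 fell and none rose (median −0.41, 1 lower without DENKO_309).

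Of 40 genes of amino acid metabolism and the urea cycle 13 fell and 1 rose (median −0.45, 2 lower without DENKO_309 and 8 without PBSKO_154), and of 30 genes of glucose metabolism 9 fell and 4 rose (median −0.3). For glucose, 1 rose and 4 fell without DENKO_309, and 2 rose without DENKO_141, without PBSKO_154 and without PBSKO_549. Sardh, sarcosine dehydrogenase, stood at 2033, 1217 and 836 CPM and 523 and 460.5 CPM (−1.47 ± 0.32, 0.0056, and 0.074 without DENKO_309). Khk, ketohexokinase, stood at 484, 474 and 527 CPM and 182 and 153.5 CPM (−1.56 ± 0.18, 6.7e-05). The pyruvate kinase genes moved apart, since the gene listed as Pkm2, whose counts per symbol do not part its M1 and M2 isoforms, rose from 8.57, 11.2 and 13.7 CPM to 22.5 and 25.9 CPM (1.11 ± 0.22, 0.0028) and Pklr fell. Of 36 genes of oxidative phosphorylation 12 fell and none rose (median −0.36). The number lower was 3 without DENKO_141, 4 without DENKO_309, 6 without PBSKO_154 and 5 without PBSKO_549.

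The growth hormone axis, which sets the male pattern of liver genes through pulses that activate STAT5, had 21 of 30 members lower and 1 higher (median −1.5, 13 lower without DENKO_309). Ghr, the receptor, stood at 1013, 825 and 752 CPM and 227 and 188 CPM (−2.06 ± 0.20, 1.5e-05). Stat5b, its transcription factor, fell by 0.76 ± 0.15 (0.0032, and 0.066 without DENKO_309), and Igf1, the growth factor it induces, by 0.82 ± 0.18 log2 units (0.0064, and 0.086 without DENKO_309). The transcripts of receptor, transcription factor and growth factor were thus all lower, while STAT5 activation itself was not measured. Mup17, a major urinary protein outside the list and among the 15 largest falls of all genes, stood at 4738, 2812 and 4018 CPM and 57.6 and 81.5 CPM (−5.79 ± 0.49, 7.5e-06), Cyp4a12a, which makes 20-HETE, at 279, 322 and 953 CPM and 36.9 and 21.8 CPM (−4.14 ± 0.59, 0.0011), and Cyp4a12b at 98.8, 121 and 154.4 CPM and 6.63 and 7.76 CPM (−4.12 ± 0.34, 1e-05). Hsd3b5, a male-specific steroid dehydrogenase, stood at 275, 169.8 and 544.1 CPM and 33.3 and 33.7 CPM (−3.3 ± 0.52, 0.002), a smaller fall than the −8.43 of wild type (difference 5.13 ± 0.70, 0.009). The member that rose was Cux2, a repressor normally confined to female liver, from 0.121, 0.397 and 0.106 CPM to 3.57 and 3.42 CPM (3.99 ± 0.68, 0.0013). Its value in wild type was −1.15 and the responses differed (5.14 ± 1.12, 0.026). The calls for the differences of Hsd3b5 and Cux2 ended in 1 and 5 of 16 alternatives, that without DENKO_141 among them.

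Of 41 hepatic transcription factors and nuclear receptors 9 fell and 2 rose (median −0.39), with 5 lower without DENKO_141 and 2 without DENKO_309. Hnf4a, the master factor of hepatocytes, stood at 762, 779.7 and 648 CPM and 646 and 548.9 CPM and did not pass (−0.29 ± 0.18, 0.29). Thrb, the thyroid hormone receptor of liver, fell from 39.5, 37.6 and 34.9 CPM to 17.9 and 16.9 CPM (−1.1 ± 0.14, 0.00015), less than in wild type (difference 1.1 ± 0.19, 0.01, not called without DENKO_141). Of 18 clock genes 2 fell and none rose. Dbp, a clock output, stood at 128, 53.5 and 27.7 CPM and 34.9 and 26 CPM and did not pass (−1.19 ± 0.87, 0.37).

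The title also names compensatory proliferation, and few genes of division were called. Of 22 tested mitosis genes none was called (median −0.06). Of 29 replication genes 2 rose and 2 fell (median 0.31). Of 22 genes of the G1 phase 3 rose and 3 fell (median −0.07). Taken for each library against the PBS mean, the mitosis median was 0.32 in DENKO_141 and −0.38 in DENKO_309, on opposite sides of 0. For replication it was 0.57 and 0.06, and for the G1 genes −0.1 and −0.19. Pcna, the replication clamp, stood at 9.54, 8.89 and 9.53 CPM and 12.4 and 12.6 CPM (0.42 ± 0.15, 0.062). Prim1, the DNA primase, rose from 1.33, 2.14 and 2.45 CPM to 5.1 and 4.85 CPM (1.32 ± 0.28, 0.0046), and Mcm10, a replication initiation factor, fell from 120.2, 77 and 122 CPM to 34.1 and 30.4 CPM (−1.72 ± 0.30, 0.0022). Mcm10 lay far above Pcna and Prim1 in every PBS library. Whether reads of another transcript are counted under its symbol was not tested. The G1 genes that rose were brakes on the cycle: Cdkn2b, which encodes p15, stood at 0.121, 0 and 0.106 CPM and 0.882 and 1.14 CPM (3.69 ± 0.65, 0.0014), Cdkn2c, which encodes p18, rose by 0.99 ± 0.19 (0.0024), and Rb1, the retinoblastoma gene, by 0.93 ± 0.17 (0.0015).

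Of 25 growth factors and receptors 7 rose and 1 fell (median 0.32, none higher without DENKO_309 and 4 without PBSKO_154). The one that fell was Egfr, the receptor of hepatocyte mitogens, from 575, 474 and 693 CPM to 239 and 224 CPM (−1.33 ± 0.21, 0.0008), while one of its ligands, Ereg, rose from 0.664, 0.397 and 0.213 CPM to 0.997 and 2.07 CPM (1.85 ± 0.46, 0.012, and 0.19 without DENKO_309). Of 28 genes of TGF-β and activin 8 rose and 2 fell (median 0.24, 2 higher without DENKO_309 and 4 without PBSKO_549). The activin subunit genes moved in opposite directions: Inhbb stood at 1.03, 1.29 and 0.692 CPM and 3.83 and 7.42 CPM (2.47 ± 0.34, 0.00025), and Inhbe at 67.5, 61.1 and 72.5 CPM and 18.9 and 34.8 CPM (−1.32 ± 0.24, 0.0023). Both responses were below those of wild type (differences −2.1 ± 0.51, 0.032, and −1.4 ± 0.32, 0.029), the wild-type value of Inhbe being 0.07. These calls ended in 8 and 6 of 16 alternatives, that without DENKO_141 among them. Bmp7, a ligand that opposes TGF-β, fell from 8.7, 9.54 and 4.15 CPM to 1.53 and 0.844 CPM (−2.63 ± 0.42, 0.00078).

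Genes of protein turnover and synthesis were for the most part not called. Of 36 proteasome genes 1 fell, of 31 genes of ribosome biogenesis 1 rose and 1 fell, and of 32 ribosomal protein genes 1 rose. Utp20, of the small-subunit processome, rose from 16.1, 16 and 14.4 CPM to 35.5 and 33.5 CPM (1.15 ± 0.17, 0.00049). Of 28 genes of autophagy and lysosomes 3 rose and 4 fell (median 0, 2 lower without either DEN library): Gla, alpha-galactosidase, rose by 1.08 ± 0.20 (0.0016) and Atp6v1a, a subunit of the proton pump, by 0.62 ± 0.13 (0.005), and Gabarapl1, an autophagosome protein, fell by 1.13 ± 0.21 log2 units (0.0024). Of the 34 tested TRIM genes, the family of the deleted ligase, 6 rose and 1 fell (median 0.2). Trim24, a nuclear receptor corepressor, stood at 25.5, 24.2 and 17.1 CPM and 56.9 and 55.2 CPM (1.33 ± 0.17, 0.00013) and rose more than in wild type (difference 0.84 ± 0.23, 0.045, a call that ended in 9 of 16 alternatives, that without DENKO_141 among them). Trim15 had no count after PBS and 0.192 and 1.14 CPM after DEN, at least 11.9-fold higher (0.011, and 0.088 without DENKO_309). Of 14 tested long noncoding RNAs 1 rose and 1 fell (median 0.39). Meg3, an imprinted one, stood at 15.9, 16.9 and 22 CPM and 1.11 and 0.548 CPM (−4.44 ± 0.49, 9.2e-05), and Rian, which is outside that list and among the 15 largest falls of all genes, at 8.45, 5.41 and 7.03 CPM and 0.269 and 0.127 CPM (−5.08 ± 0.38, 1e-06).

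The largest rises of all tested genes with a mean of at least 1 CPM over the 5 libraries included genes known from other tissues. Sprr1a, a cornified envelope protein, stood at 2.23, 0.596 and 0.319 CPM and 196 and 255 CPM (7.79 ± 0.94, 0.00083), and Ckmt1, the mitochondrial creatine kinase, had 2 counts over the PBS libraries and 18.1 and 16.7 CPM after DEN, 483-fold (exact 95% counting interval 133 to 3990). Asb11, a ubiquitin ligase adaptor, had none after PBS and 1.8 and 3.75 CPM after DEN, at least 50.5-fold higher. Col22a1, a collagen of tissue junctions, rose 228-fold (exact 95% counting interval 62.7 to 1890), Celf5, a neural RNA-binding protein, 240-fold (exact 95% counting interval 65.9 to 1980), Sec14l5 185-fold (exact 95% counting interval 50.8 to 1530) and R3hdml 247-fold (exact 95% counting interval 68.1 to 2050). The unnamed transcript 1700007K13Rik went from 0.362, 0 and 0.106 CPM to 35.2 and 33.6 CPM (7.83 ± 0.37, 1.6e-08). These 8 genes were at or below 2.23 CPM in every PBS library. In the other direction, Rcan2, an inhibitor of calcineurin, fell from 26.1, 12.4 and 16 CPM to 0.153 and 0.0843 CPM (−7.17 ± 0.60, 6.5e-06), Esrrg, an orphan nuclear receptor, from 5.74, 3.92 and 1.92 CPM to 0.115 and 0.0843 CPM (−5.18 ± 0.61, 6.8e-05), and Fhit, a dinucleotide hydrolase, and Serpina9, a protease inhibitor, had log2 fold changes of −6.34 ± 0.42 (4.7e-07) and −5.33 ± 0.65 (0.00014). Gpr98, an adhesion receptor, was 188-fold (exact 95% counting interval 33.5 to 7480) lower.

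Most called genes lay farther from the PBS mean in the same one of the 2 DEN libraries. DENKO_309 lay farther from the PBS mean than DENKO_141 in 1094 of the 1594 genes called higher and in 1014 of the 1416 called lower. Genes of the same library can move together, so these counts do not test whether the libraries responded to unlike extents. The chi-square per degree of freedom between DENKO_141 and DENKO_309 was 43. Between the pairs of PBS knockout libraries it was 38.6, 73.5 and 78.6, so the DEN pair lay within the range of the PBS pairs. Beside Oat, Fgf21 and Trim15, wide gaps were seen in genes at or near 0 in one of the DEN libraries. Hcrtr2, an orexin receptor, stood at 1.93, 5.71 and 0.798 CPM and 0 and 0.169 CPM (−5.04 ± 1.05, 0.0063, and 0.055 with the 5 knockout libraries fitted alone) and Tmeff2, a transmembrane protein, at 4.29, 4.47 and 4.95 CPM and 0 and 0.211 CPM (−5.42 ± 0.60, 4e-05). Klk1b4, a kallikrein, was at 1.33, 1.89 and 2.98 CPM after PBS, 0.805 CPM in DENKO_141 and 0.127 CPM in DENKO_309 (−2.11 ± 0.53, 0.012, and 0.11 without DENKO_309, 0.063 with the 5 knockout libraries fitted alone). The median over the tested members of a list, taken for each library against the PBS mean, was farther from 0 in DENKO_309 for fatty acid synthesis (−0.59 in DENKO_141 and −1.22 in DENKO_309), periportal genes (−0.12 and −0.54), amino acid genes (−0.15 and −0.75) and p53 arrest targets (2.62 and 2.92). It was farther from 0 in DENKO_141 for the growth hormone list (−1.7 and −1.29), and nearly equal for p53 death targets (1.54 and 1.59) and transporters (−0.45 and −0.44).

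**Figure D5:**
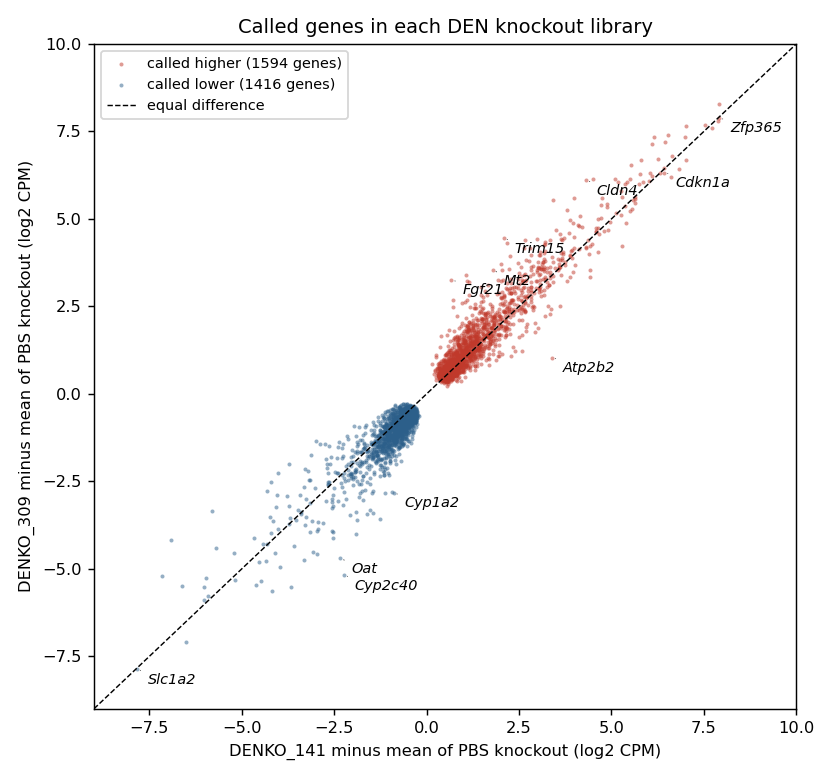
Log2 CPM of each called gene in DENKO_141 (x axis) and DENKO_309 (y axis), each minus the mean of the 3 PBS knockout libraries, for 1594 genes called higher (red) and 1416 called lower (blue), with the line of equal difference dashed. Cdkn1a, Zfp365 and Slc1a2 lie close to the line, while Oat and Cyp1a2 are lower and Fgf21 and Mt2 higher in DENKO_309.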

How the data were processed

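Liver RNA was sequenced after removal of ribosomal RNA with a kapa kit. The deposited values are counts of reads per gene symbol, 1 table a library. Per the submitters' processing notes, reads were handled with bcl2fastq, TopHat2, HTSeq and the mm9 build; the sources used here give neither versions nor the strand setting. The 5 closing tally lines, 61.4 to 78.7% of the listed counts in the knockout libraries, were kept out of library sizes and tests.

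The counts of 11 libraries in 4 groups were fitted together (R 4.3.3, edgeR 4.0.16, robust quasi-likelihood F test, TMM scaling, filterByExpr by group, Benjamini-Hochberg adjustment over 13255 of 22609 symbols, threshold 0.05). The library labelled TRIM21+/- was left out. CPM values use library sizes scaled by TMM. Where a group had no count, a fold was computed against a floor of 3 counts over that group, and ratios against 1 to 3 counts carry an exact interval that covers counting error only. The fit was tested on simulated data with known changes.

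Named genes are fixed members of each list, the 3 largest rises and 3 largest falls among called members of a list, the 15 largest rises and 15 largest falls of all genes, the 10 widest gaps between the DEN libraries and the 5 largest differences from wild type in each direction; not all are described, and some are not reported here. Members and lists were chosen with earlier results of these data known. Alternatives were other scaling factors, no filter, DESeq2, limma-voom, the 5 knockout libraries alone and each library left out.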

Additional observations from a re-analysis of the deposited data

Results flagged for a closer look

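For 28 genes named in the report, the DEN response of knockout liver differed from that of wild-type liver by the test of the difference itself, edgeR's quasi-likelihood test of the interaction with Benjamini-Hochberg adjustment over 13255 genes. Values are the knockout minus the wild-type response in log2 units. In metabolism and transport the difference was 5.78 for Cyp1a2, 5.13 for Hsd3b5, 3.60 for Selenbp2, 3.42 for Cyp2c37, 2.69 for Ugt2b1, 2.64 for Lgr5 and 2.27 for Cyp27a1. In these 7 genes the response of wild type was the lower one. In iron and blood-related genes it was 3.49 for Hamp2, 1.68 for Alas2 and 1.40 for C6. Regulators and receptors gave 5.14 for Cux2, 1.30 for Lifr, 1.10 for Thrb, 0.84 for Trim24 and 0.82 for Nfe2l2, with 0.92 for the glutathione gene Gclm, 1.99 for the macrophage gene Lgals3 and 0.99 for Reln.

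The response was lower in knockout for the secreted or stress-induced genes Lcn2 (−3.16), Inhbb (−2.10), Tnfrsf12a (−1.79), Inhbe (−1.40) and Ddit3 (−1.34), for the lipid genes Cidec (−2.60), Acot2 (−2.23) and Apoa4 (−1.89), and for Gla (−0.99) and Zmat3 (−0.84). All 28 differences had the same sign in all 16 alternatives. Without DENKO_141, 2 of the 28 were called, Cyp1a2 and Tnfrsf12a, and these were the ones called in every alternative. The call ended in 12 of 16 alternatives for Hamp2, in 11 for Acot2, in 10 for Gla, Nfe2l2 and Zmat3, in 9 for Cidec, Lgr5 and Trim24, and in 1 to 8 for the other 18. The part of the lower number of DEN knockout libraries (2, against 3 in each other group) was not tested.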

How the results depend on the processing

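No paired analysis was possible because no number in the sample titles is shared between groups. Leaving out 1 library at a time gave 718 to 1634 genes called higher and 443 to 1534 called lower after DEN in knockout liver, with both minima without DENKO_309 and both maxima without a wild-type library (DENWT_996). Differences from wild type ranged from 24 to 622 called higher and from 2 to 539 called lower, with both minima without DENKO_141 and both maxima without DENWT_995. The other scalings, no filter, limma-voom and the 5 knockout libraries alone changed neither count of DEN calls by over 1.5 times. DESeq2 called 846 differences from wild type higher and 604 lower, against 540 and 332 in edgeR; the cause was not tested. Of the DEN calls, 53% were higher in edgeR, 58% with upper-quartile factors and 61.8% without DENKO_309. Of 162 named genes called after DEN, 137 were called under every alternative, 22 were not called without DENKO_309 and 3 not without DENKO_141, and none changed sign. The named genes were picked in part for their large changes in these data, so these numbers do not stand for all called genes. Of all 3010 called genes, 2149 were also called with the 5 knockout libraries fitted alone. With 2 DEN libraries, changes of small size may have gone uncalled.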
